A study of Mus musculus with 4 samples.

Results

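Neat1, Malat1 and the paraspeckle protein genes Sfpq, Nono, Pspc1 and Rbm14 were examined in mouse pachytene spermatocytes. These 6 genes, 2 non-coding and 4 protein-coding, were taken by symbol from a table of 23420 genes. They were chosen by symbol after their TPM in these 4 libraries and the difference of Neat1 between the conditions had been seen, so the differences between conditions are given for them as a description, and where a member meets or misses the call limits of the fit on all genes, that is no independent test. Nono lies on the X chromosome and the other 5 genes lie on autosomes.

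RNA-seq was performed on pachytene spermatocytes sorted by FACS from wild-type C57BL/6 mice of 23 weeks of age and then cultured for 24 h. The cells received either DMSO, the solvent (Ctrl, 2 libraries), or 10 µM AZ20, an inhibitor of the ATR kinase (AZ20, 2 libraries). Cells of an animal were divided between the conditions, so the replicate numbers pair the libraries and only 2 animals stand behind the data, and each library came from 15000 cells. ATR signaling keeps the sex chromosomes silent at this stage, a state called meiotic sex chromosome inactivation (MSCI), and the comparison asked what happens to RNA levels when ATR is inhibited.

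Paraspeckles are bodies in the cell nucleus built on Neat1, a long non-coding RNA that binds the related proteins SFPQ, NONO and PSPC1, known as the DBHS family. The Neat1 gene makes a short polyadenylated transcript and a long transcript, and the long one is the scaffold of the paraspeckle. Malat1, the neighbouring non-coding gene, makes an abundant RNA found in nuclear speckles, the bodies that hold splicing factors. The long Neat1 RNA and Malat1 have no ordinary poly(A) tail. Both end in a triple helix formed by U-rich runs and an A-rich end, which is left behind when RNase P cuts off a tRNA-like piece.

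Both genes lie on chromosome 19 (GRCm38), on the minus strand, with Malat1 at chr19:5795690-5802672 and Neat1 at chr19:5824708-5845478. The 3′ ends are printed because they show what sets the long Neat1 RNA and Malat1 apart from the short Neat1 RNA, whose span the counted reads cover. The windows of 90 bases are chr19:5824708-5824797, at the annotated end of the long Neat1 transcript, chr19:5795982-5796071, inside the single Malat1 exon, and chr19:5842307-5842396, at the end of the short Neat1 transcript. All are taken from the GENCODE M21 transcripts and read 5′ to 3′. Capitals mark the 3 runs of at least 11 bases that the first 2 windows share in the same order, and in the third window the polyadenylation signal AATAAA.
Neat1 long transcript: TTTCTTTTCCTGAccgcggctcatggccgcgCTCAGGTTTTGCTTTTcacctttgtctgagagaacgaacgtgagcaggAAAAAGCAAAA
Malat1: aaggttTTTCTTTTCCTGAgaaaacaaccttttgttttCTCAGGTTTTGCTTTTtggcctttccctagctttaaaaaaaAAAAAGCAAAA
Neat1 short transcript: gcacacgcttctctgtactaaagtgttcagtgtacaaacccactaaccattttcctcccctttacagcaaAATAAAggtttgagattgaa

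The shared runs were 13, 16 and 11 bases long, and the last of them closed both windows. In Malat1, 292 annotated bases follow it. Read on the transcript strand only, the run AAAAAGCAAAA occurred in the last 90 bases of 0.0436% of 139864 annotated transcripts, and AATAAA in 28.5%. That search covered annotated ends only, so the run of the Malat1 transcript used here, 292 bases before its end, was not among those counted. These matches describe the letters and were not linked to a measurement.

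The deposited values are TPM, a level of transcripts scaled by gene length and to a total of 1000000 in each library. Since each gene has the same length in every library, the whole reads behind the TPM could be worked out for all 16857 genes above 0. Ctrl replicates 1 and 2 held 13858272 and 15729090 reads on genes, and AZ20 replicates 1 and 2 held 20175516 and 18475704. Genes were fitted with limma on log2(TPM + 1) when their mean TPM was above 1 in either condition, which left 10316 genes, and a gene was called at a change of at least 2-fold on that scale with a Benjamini-Hochberg adjusted p under 0.05. A change on this scale understates the change of genes with low TPM. Markers of pachytene spermatocytes summed to 11000 TPM in each Ctrl library and 11300 TPM in each AZ20 library. Of 23 markers of Sertoli cells, Leydig cells, macrophages and peritubular myoid cells, 15 had at most 3 reads in every library and 9 had none, and the 23 together summed to 5.02 to 7.89 TPM. Sox9 and Wt1 (Sertoli) and Cyp17a1, Cyp11a1, Hsd3b1, Insl3 and Lhcgr (Leydig) were at 0 in all libraries.

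The members differed widely in level, and Nono was barely present. In Ctrl, Malat1 stood highest at 143 ± 25.8 TPM (mean ± SD, n = 2), followed by Sfpq at 23.7 ± 0.778, Pspc1 at 18.6 ± 2.14, Rbm14 at 6.70 ± 0.391, Neat1 at 1.27 ± 0.127 and Nono at 0. The order in AZ20 differed only in Neat1, at 5.35 ± 0.645 TPM, which had passed Rbm14, at 3.46 ± 0.0508. No 2 neighbours in either order had overlapping libraries. Of the 5 members that passed the filter, 1 met the call limits, Neat1, on the values it had been chosen by, in 5 of 13 settings of the fit, and close to the limit. Across all genes tested 2.28% were called higher and 0.0485% lower, and across the 9926 autosomal genes tested 0.101% were called higher and 0.0504% lower. Neat1 and Sfpq were higher in both AZ20 libraries than in both Ctrl libraries, an arrangement found in 26.4% of genes tested, and Rbm14 was lower in both, as were 11.7% of genes tested. Malat1 and Pspc1 overlapped between the conditions. In such bulk libraries, fewer cells of a type and less RNA per cell cannot be told apart.

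**Figure D1:**
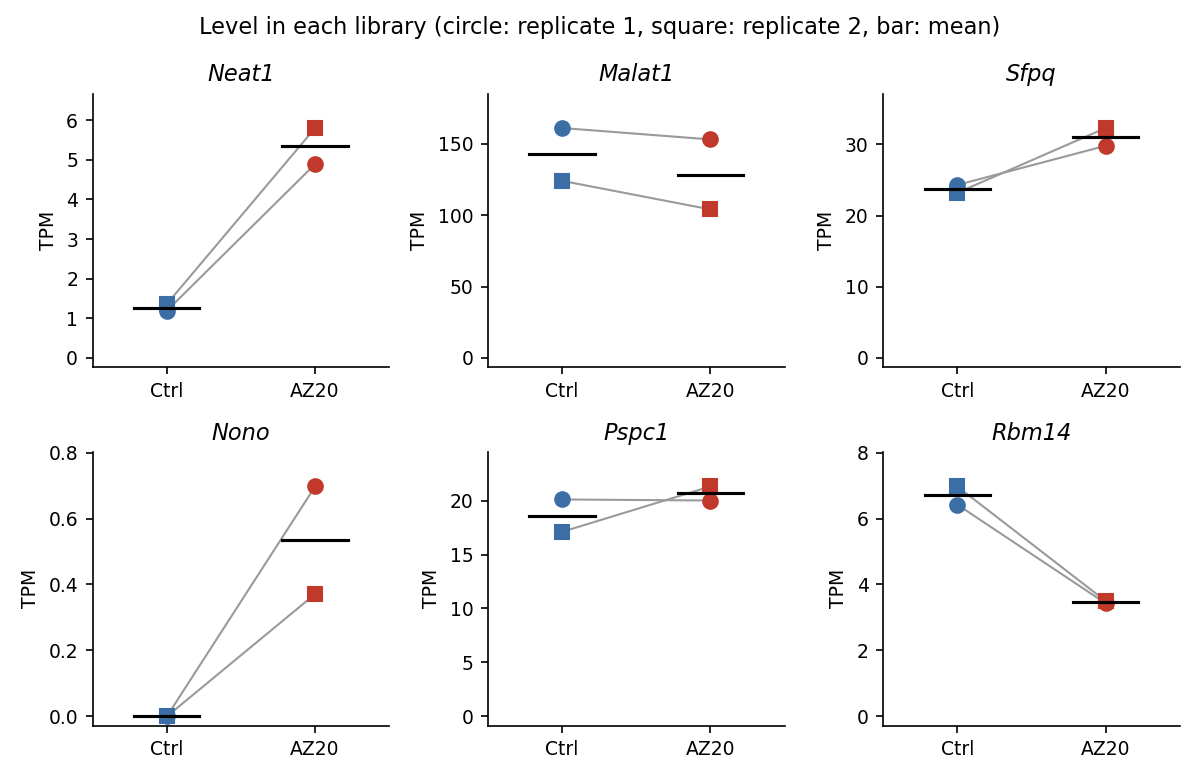
TPM (vertical axes, each from 0 and each on its own scale) of the 6 genes in Ctrl (blue) and AZ20 (red), with a circle for replicate 1, a square for replicate 2, a grey line joining the libraries of a pair and a black bar at the mean of 2 libraries. Neat1 lies between 4.89 and 5.80 TPM in AZ20 and at 1.19 and 1.36 in Ctrl, Rbm14 lies lower in both AZ20 libraries, and Malat1 and Pspc1 overlap between the conditions.

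Neat1, the scaffold RNA, was at 1.19 TPM in Ctrl replicate 1 and 1.36 in Ctrl replicate 2, against 4.89 in AZ20 replicate 1 and 5.80 in AZ20 replicate 2. Every AZ20 value was above every Ctrl value, and the gap between the conditions was wider than that between replicates. The mean TPM in AZ20 was 4.20 times that in Ctrl, with ratios of 4.13 and 4.25 in the pairs, and the log2(TPM + 1) difference was 1.48 (SE 0.28). Neat1 remained a low-level transcript, above 11.2% and 15.3% of the genes tested in the Ctrl libraries and above 32.2% and 37.8% in the AZ20 libraries.

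Few reads stood behind the Ctrl values of Neat1, 38 and 50, whereas 226 and 242 stood behind those of AZ20. As RPM (reads in every 1000000 on genes), Ctrl replicate 1 had 2.74 (exact 95% interval 1.94 to 3.76), Ctrl replicate 2 had 3.18 (2.36 to 4.19), AZ20 replicate 1 had 11.2 (9.79 to 12.8) and AZ20 replicate 2 had 13.1 (11.5 to 14.9). The intervals, which cover counting error only, did not overlap between the conditions. Among the autosomal genes tested, 19, Neat1 included, had a log2 difference at least as high as that of Neat1, or 0.191%. The call of Neat1 lay close to the limit and was lost with a pseudocount of 0.1, without the filter on TPM, after quantile normalization, with voom on the recovered reads and whenever 1 of the 4 libraries was left out, while its log2 difference stayed between 1.22 and 2.01. Markers of Sertoli cells, which summed to 0.0529 and 0.0984 TPM in Ctrl, summed to 0.590 and 0.651 in AZ20, and their part in the Neat1 difference was not tested. Of these 6 markers, 4 had at most 3 reads in every library and none passed the filter, so the sums rest on few genes at low levels. The summed markers of spermatogonia overlapped between the conditions, from 7.99 to 20.5 TPM in Ctrl and 12.7 to 14.9 in AZ20. Those of round spermatids overlapped too but were higher in AZ20 within each pair, at 354 against 751 and 144 against 243 TPM. Their part in the Neat1 difference was not tested.

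The Neat1 value belongs to the part of the gene that both transcripts share. The recovered reads fit a counted length of 3177 bases, close to the 3170 bases that the short transcript spans and far from the 20771 bases of the long one. Reads over the 17599 bases that only the long transcript holds were therefore not counted. A read of the short transcript and a read from the start of the long one cannot be told apart in these values, so they do not show how much of the long scaffold form was present in either condition. The low-input kit starts cDNA synthesis at poly(A), and how well it captured the long Neat1 RNA and Malat1 was not tested.

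Malat1, the speckle RNA, was at 161 TPM in Ctrl replicate 1 and 124 in Ctrl replicate 2, against 153 in AZ20 replicate 1 and 104 in AZ20 replicate 2. The conditions overlapped, and replicate 1 was above replicate 2 by a ratio of 1.29 in Ctrl and 1.47 in AZ20. The mean TPM in AZ20 was 0.900 times that in Ctrl, with ratios of 0.949 and 0.836 in the pairs, and the log2(TPM + 1) difference was -0.17 (SE 0.24). The sign turned to 0.02 without Ctrl replicate 1 and to 0.11 without AZ20 replicate 2. Between 9522 and 15501 reads stood behind each value, so counting error was small beside the gap between replicates. Malat1 ranked 12 by mean TPM among 234 autosomal genes of the lincRNA class that were tested, and Neat1 ranked 133. Markers of round spermatids were likewise higher in replicate 1, at 354 and 144 TPM in Ctrl and 751 and 243 in AZ20, and their part in the spread of Malat1 was not tested.

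The 2 RNAs of the locus thus stood in different proportion. Malat1 had 136 and 91.1 times the TPM of Neat1 in the Ctrl libraries, and 31.2 and 17.9 times in the AZ20 libraries. These ratios are within a library and per length, and they did not overlap between the conditions. Malat1 itself overlapped, so the gap restates the Neat1 difference, seen before Neat1 was chosen, and is no further result.

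The DBHS proteins bind RNA as pairs of family members. Sfpq (chr4:127021324-127037013, plus strand), which encodes a splicing factor and core paraspeckle protein, was at 24.3 TPM in Ctrl replicate 1 and 23.2 in Ctrl replicate 2, against 29.8 in AZ20 replicate 1 and 32.3 in AZ20 replicate 2. Both AZ20 libraries were above both Ctrl libraries. The mean TPM in AZ20 was 1.31 times that in Ctrl, with ratios of 1.23 and 1.39 in the pairs, and the log2(TPM + 1) difference was 0.37 (SE 0.20). Differences as high or higher were found for 18.5% of autosomal genes tested. Between 908 and 1605 reads lay behind each value.

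Pspc1 (chr14:56720710-56778316, minus strand), which encodes the DBHS protein first described in paraspeckles, was at 20.1 TPM in Ctrl replicate 1 and 17.1 in Ctrl replicate 2, against 20.0 in AZ20 replicate 1 and 21.3 in AZ20 replicate 2. Ctrl replicate 1 lay among the AZ20 libraries, so the conditions overlapped. The log2 difference was 0.15 (SE 0.21), with -0.01 and 0.30 in the pairs.

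Nono (chrX:101429318-101448591, plus strand), the X-linked member of the family, had no read in either Ctrl library, and 0.697 TPM (25 reads) in AZ20 replicate 1 and 0.371 TPM (12 reads) in AZ20 replicate 2. Both AZ20 libraries had reads where both Ctrl libraries had none. The Ctrl level was set to 3 reads per library, which a count of 0 allows and which equals 0.120 and 0.105 TPM. The AZ20 mean of 0.534 ± 0.231 TPM was 4.73-fold above that level, and the AZ20 value was 5.78-fold and 3.52-fold above it in the pairs. These folds leave the counting error of the AZ20 reads aside. Nono did not reach the filter of 1 TPM and was not tested. At this depth its absence from Ctrl cells is not shown. The exact 95% upper limits were 0.266 and 0.235 RPM in Ctrl replicates 1 and 2. The intervals in AZ20 replicates 1 and 2 were 0.802 to 1.83 and 0.336 to 1.13 RPM.

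The pattern of Nono was common on its chromosome. Of 1033 X-linked genes in the table, 230 had no read in either Ctrl library and reads in both AZ20 libraries, and 88 of these had an AZ20 mean below that of Nono. Among the 341 X-linked genes tested, 63.3% were called higher, their median log2 difference was 2.61 against 0.06 for autosomal genes, and their median AZ20 level was 6.45 TPM, well above that of Nono.

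Summed over the 3 genes, DBHS mRNA was at 44.4 and 40.3 TPM in Ctrl and 50.5 and 54.0 in AZ20. Sfpq made up 54.7% and 57.6% of it in Ctrl and 59.0% and 59.8% in AZ20. Nono made up 1.38% and 0.687% in AZ20, so nearly all DBHS mRNA came from the autosomal members in both conditions. Per 100 TPM of DBHS mRNA there were 2.67 and 3.39 TPM of Neat1 in Ctrl and 9.68 and 10.8 in AZ20.

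Rbm14, which encodes an RNA-binding coactivator that paraspeckles need in order to form, was at 6.42 TPM in Ctrl replicate 1 and 6.97 in Ctrl replicate 2, against 3.43 in AZ20 replicate 1 and 3.50 in AZ20 replicate 2. Both AZ20 libraries were below both Ctrl libraries, and the replicates lay close together. The mean TPM in Ctrl was 1.93 times that in AZ20, and the AZ20 to Ctrl ratios in the pairs were 0.534 and 0.502. The log2(TPM + 1) difference was -0.79 (SE 0.25), which 87 of the 9926 autosomal genes tested equalled or went below, or 0.876%. The difference was negative in all 13 settings of the fit, from -1.03 to -0.73, and met the call limits in none. Its reads were 182 and 226 in Ctrl and 140 and 129 in AZ20. The gene lies at chr19:4800569-4811634, 984055 bases from Malat1.

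**Figure D2:**
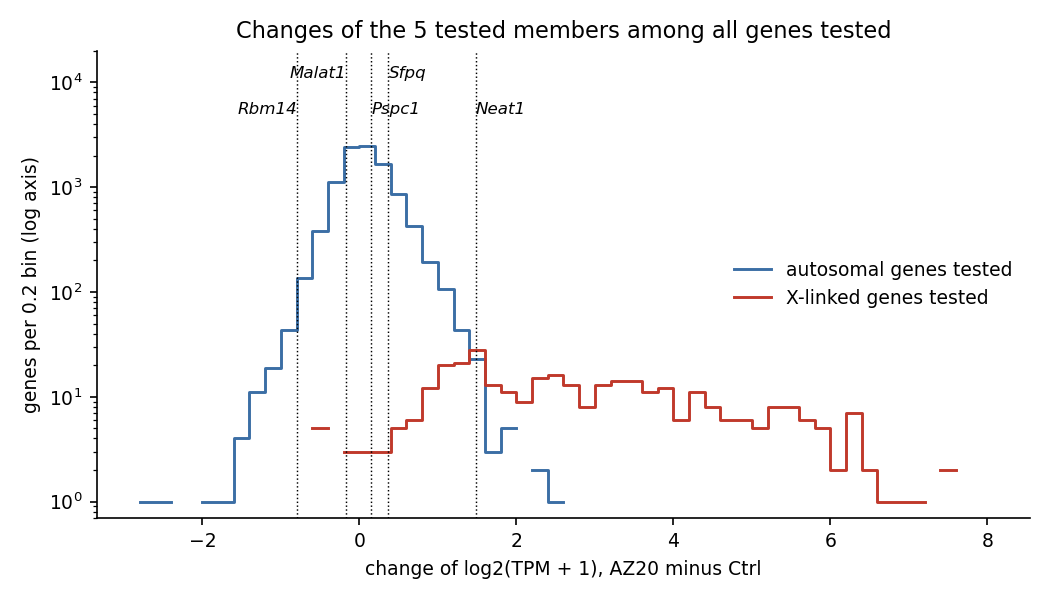
Number of genes (vertical log axis) by change of log2(TPM + 1), AZ20 minus Ctrl, in bins of 0.2 on the horizontal axis, for autosomal (blue) and X-linked (red) genes tested, with bins without genes left blank and dotted lines at the 5 tested members. Neat1, at 1.48, lies in the upper tail of the autosomal genes, Rbm14, at -0.79, in the lower tail, and Malat1, Pspc1 and Sfpq near the middle.

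Of 36 further genes whose proteins are reported in paraspeckles, 31 passed the filter. One was called, Rbmx, and it was higher in AZ20. No gene of the list was called lower, and none of its 29 autosomal genes tested was called. Across all autosomal genes tested 0.101% were called higher and 0.0504% lower. The median log2 difference over the 31 genes was 0.20 against 0.07 for all genes tested, and 74.2% were positive against 59.8%. Quantile normalization set the median of all genes at -0.07 and their positive share at 40.4%, and the list then had a median of 0.04 with 58.1% positive. By unadjusted p under 0.05, 4 genes were higher and 0 lower in limma, namely Rbmx, Rbm3, Hnrnpm and Srsf10, the last 3 named after their values were seen. By the same limit 8.03% of all genes tested were higher and 1.13% lower, and 88.9% of the X-linked genes tested, to which Rbmx and Rbm3 belong, were higher.

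Rbmx, the X-linked gene of the RNA-binding protein hnRNP G, was at 0 and 0.162 TPM in Ctrl and at 8.38 and 13.1 in AZ20. Its log2 difference was 3.42 (SE 0.32, limma adjusted p = 0.00134), and its reads went from 0 and 7 to 456 and 644. The call was lost without AZ20 replicate 1 (limma adjusted p = 0.0902) or AZ20 replicate 2 (0.0825), as were all calls higher in AZ20. Rbm3, an X-linked cold-inducible RNA-binding protein gene, was at 0 in both Ctrl libraries and at 1.92 and 2.07 TPM in AZ20. Its AZ20 mean was 25.1-fold above 3 reads per Ctrl library. Rbm3 was not called (limma adjusted p = 0.0767), but was called with the replicate block (limma adjusted p = 0.00766), without the filter, without the trend and with voom, in 4 of 12 settings in all. The autosomal retrocopies of Rbmx, Rbmxl1 and the testis-specific Rbmxl2, were likewise above Ctrl in both AZ20 libraries, at 11.2 and 9.25 against 16.5 and 15.4 TPM for Rbmxl1 and 4.11 and 5.30 against 7.43 and 8.02 for Rbmxl2. Neither retrocopy was called (log2 differences 0.60 and 0.62, limma adjusted p = 0.478 and 0.533).

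The most abundant autosomal genes of the list differed little. Hnrnpk, which encodes an hnRNP needed for Neat1 processing, was at 529 and 572 TPM in Ctrl and 613 and 617 in AZ20 (log2 difference 0.16). Nudt21, a cleavage factor subunit that acts at the poly(A) site of short Neat1, was at 148 and 208 against 184 and 173 TPM (0.03). Cirbp, a cold-inducible RNA-binding protein gene, was at 223 and 228 against 240 and 216 TPM (0.02). None of the 3 was called. Hnrnpa1 was listed at 0 in all libraries but AZ20 replicate 2, at 0.0397 TPM. Reads that align to several places were discarded, so the values of genes with similar copies are uncertain, Hnrnpa1, Rbmx and its retrocopies among them. How far each was affected was not tested.

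**Figure D3:**
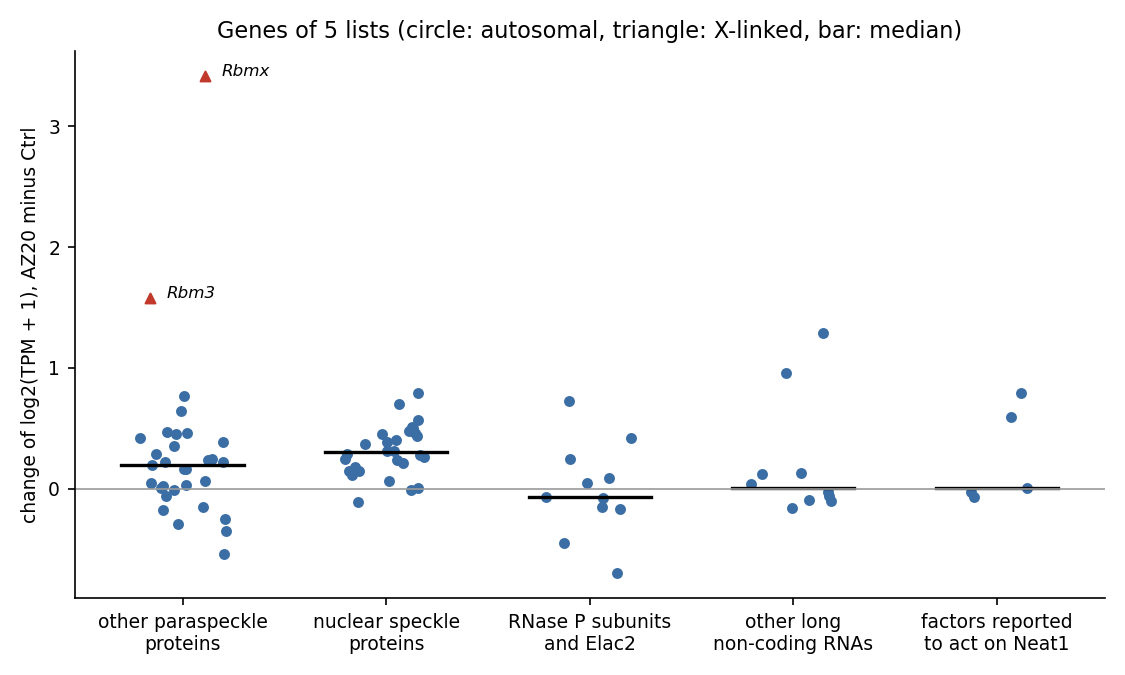
Change of log2(TPM + 1), AZ20 minus Ctrl (vertical axis), of each tested gene of 5 lists (horizontal axis, with points spread sideways only to keep them apart), with circles for autosomal genes, triangles for X-linked genes and black bars at the medians. The X-linked Rbmx, the single called gene, and Rbm3 stand apart at 3.42 and 1.58, and the list medians lie between -0.07 and 0.30, of which the medians of the other long non-coding RNAs and of the factors reported to act on Neat1 turn negative after quantile normalization.

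Nuclear speckle proteins, the company of Malat1, gave no call among 28 autosomal genes tested, against 0.101% higher and 0.0504% lower among all autosomal genes. By unadjusted p under 0.05, 4 were higher and 0 lower in limma, namely Tra2a, Srsf7, Srsf9 and Srsf5, all splicing factors named after their values were seen, against 5.17% higher and 1.18% lower among autosomal genes tested. Of the 28 genes 92.9% had a positive difference, against 59.8% of all genes, with medians of 0.30 and 0.07. After quantile normalization 78.6% were positive, against 40.4% of all genes, with medians of 0.25 and -0.07. Tra2a had the highest difference, from 25.7 and 25.2 TPM in Ctrl to 44.9 and 44.7 in AZ20 (log2 difference 0.79, limma adjusted p = 0.138). The most abundant genes were the splicing factors Srsf2, at 1360 and 1070 against 1250 and 1670 TPM (0.26), Tra2b, at 414 and 483 against 566 and 518 (0.28), and Sf3b1, at 172 and 191 against 178 and 187 (0.01).

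The RNase P list held its subunits and RNA, with Elac2, the nuclease that trims the other end of tRNAs. Of these 13 genes 11, all autosomal, passed the filter, none was called and 0 passed an unadjusted p of 0.05 in limma. Among all autosomal genes tested 0.101% were called higher, 0.0504% were called lower and 6.35% passed that unadjusted limit. With 11 genes, counts of 0 do not set the list apart. The median log2 difference of the 11 was -0.07, from -0.70 to 0.73, against 0.06 for autosomal genes. The subunit genes Rpp21, Rpp30 and Pop4 were the most abundant, with differences of -0.08, -0.17 and -0.15.

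Of 24 other well-known long non-coding RNAs, 21 were in the table, 10 passed the filter and none was called. Among autosomal genes tested, 0.101% were called higher and 0.0504% lower. All 10 are autosomal, and none of the list's 5 X-linked genes in the table was tested. These 5 are named after their values were seen, with reads in Ctrl against AZ20, replicates 1 and 2. Tsix had 0 and 0 against 11 and 23, and Ftx 0 and 1 against 70 and 35. Jpx had 0 and 0 against 3 and 1, Xist 0 and 0 against 28 and 0, and 6720401G13Rik none. The median log2 difference of the 10 was 0.01, and -0.24 after quantile normalization. By unadjusted p under 0.05, 2 of the 10, all autosomal, were higher and 0 lower in limma, against 5.17% and 1.18% of autosomal genes. One was 2900097C17Rik (Norad), which binds Pumilio proteins, at 7.05 TPM in both Ctrl libraries and at 13.4 and 16.0 in AZ20 (log2 difference 0.96, limma adjusted p = 0.142). The other was Mir22hg, the host of a microRNA, named after its values were seen, at 0.730 and 1.42 against 4.25 and 3.80 TPM (1.29, adjusted p = 0.144), which was called with the replicate block. Tug1 was at 94.0 and 74.2 against 71.3 and 90.4 TPM (-0.06), and 1700020I14Rik (Oip5os1) at 78.8 and 67.2 against 77.7 and 81.7 (0.13). Among all 234 autosomal lincRNA genes tested, 4 were called higher and 0 lower, against 0.101% and 0.0504% of all autosomal genes tested. Neat1, 1 of the 4, had been chosen with its difference seen and was called in 5 of 13 settings. The others, named after their values were seen, were Snhg6, Snhg10 and 2900076A07Rik, with log2 differences of 1.14, 1.04 and 1.18. Only 4930479D17Rik, which was not called, was above Neat1 among the 234 genes, at 1.70.

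Of 7 genes of transcription factors and others reported to act on Neat1, 5, all autosomal, passed the filter and none was called. Across all autosomal genes tested 0.101% were called higher and 0.0504% lower. The 5 had a median log2 difference of 0.01, or -0.17 after quantile normalization. Trp53, the p53 gene, was at 1.43 and 3.85 TPM in Ctrl and 3.17 and 5.38 in AZ20, and the conditions overlapped. Hsf1, the heat shock factor, was at 6.24 and 5.07 against 11.8 and 9.29 TPM (0.79, limma adjusted p = 0.361), the only one of the 5 with an unadjusted p under 0.05 (5.17% of autosomal genes were higher by that limit). Atf2 was at 24.5 and 19.2 against 18.1 and 24.8 TPM (-0.03). Epas1, a hypoxia-inducible factor gene, was at 0 in all libraries, and Hif1a had a difference of -0.07.

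No other tested gene around the locus was called. Malat1 and Neat1 are separated by 22035 bases. Within 500 kb on either side of the pair lay 65 other genes, of which 42 were tested and 0 called by limma. Calls were rare among all autosomal genes tested, with 0.101% higher and 0.0504% lower, so 0 of 42 does not set the locus apart. By unadjusted p under 0.05, 4 passed, namely D330050I16Rik, 4930481A15Rik, Tm7sf2 and Mus81, with log2 differences of 0.89, 0.71, 1.28 and -1.02, named after their values were seen. Among all autosomal genes tested 6.35% passed that limit. The median over the 42 genes was 0.04.

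The nearest gene on the Neat1 side, Frmd8, 4224 bases away, was at 9.33 and 9.78 TPM in Ctrl and 7.78 and 9.92 in AZ20 (-0.11, SE 0.24). Beyond it, Slc25a45 had no read and Tigd3 was under 0.5 TPM in every library. On the Malat1 side Ltbp3 was at most at 0.265 TPM, and Sssca1 was at 436 and 401 against 402 and 347 TPM (-0.16, SE 0.15). Frmd8 and Sssca1 were not called, and Slc25a45, Tigd3 and Ltbp3 did not pass the filter and were not tested.

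**Figure D4:**
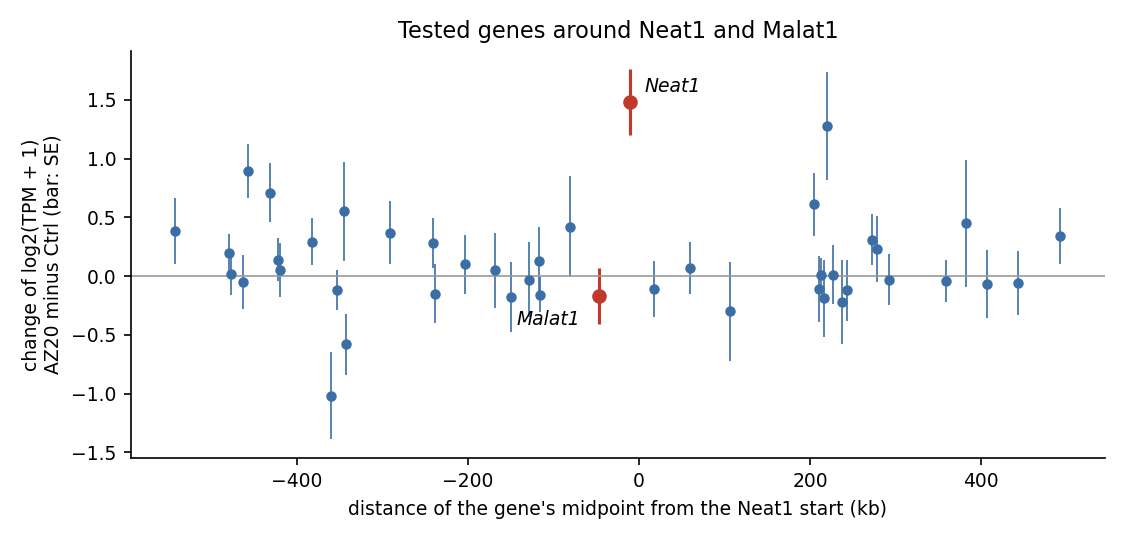
Change of log2(TPM + 1), AZ20 minus Ctrl (vertical axis, bars are the SE of the fit), of tested genes against the distance of their midpoint from the Neat1 start in kb (horizontal axis), with Neat1 and Malat1 in red. Neat1 stands at 1.48, while Malat1 beside it stands at -0.17 and the 42 other genes have a median of 0.04.

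Some genes lay close to the members across the 4 libraries by the Euclidean distance between deviations of log2(TPM + 1) from the Ctrl mean. This scale shrinks the change of genes with low TPM, so genes at a small distance can differ in TPM ratio. Among 6707 genes with a mean of at least 5 TPM, the nearest to Neat1 were Snhg1, a snoRNA host gene, at a distance of 0.169, Vax2, a homeobox gene, at 0.323, and Cks2, a cofactor of cyclin-dependent kinases, at 0.369. Snhg1 was at 96.4 and 106 TPM in Ctrl and 272 in both AZ20 libraries, and Cks2 at 408 and 452 against 970 and 1040, so both were far above Neat1 in level. The mean TPM in AZ20 was 2.69, 3.20 and 2.34 times that in Ctrl for Snhg1, Vax2 and Cks2, against 4.20 times for Neat1. The nearest to Malat1 were 1700018F24Rik at 0.040, Atp6ap1l at 0.048 and 8430429K09Rik at 0.056, all with replicate 1 above replicate 2 in both conditions. The nearest to Nono were D330023K18Rik at 0.030, Slmo1 at 0.060 and Pddc1 at 0.071, all autosomal and all with reads in Ctrl and at least 7.28 TPM there. Their AZ20 means were 1.53, 1.62 and 1.54 times those in Ctrl, against 4.73-fold for Nono over 3 reads per Ctrl library.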

How the data were processed

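RNA was measured in 4 libraries, 2 of Ctrl and 2 of AZ20. Per the labels and the methods, libraries were made with a low-input kit, read as pairs of 150 bases, trimmed with Trimmomatic (0.39), aligned to GRCm38 with STAR (2.5.4b), keeping unique alignments, and counted on the UCSC refGene annotation with featureCounts (2.0.1). The authors deposited TPM computed from those counts. The strand setting is not given in the sources used here. The labels give a culture temperature of 34 °C and the methods 32 °C.

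The table held 23512 rows, of which 92 named no gene and were left out. Reads were recovered as whole numbers to within 0.002 reads, with gene lengths scaled on 512 single-transcript genes so that each length was whole. Symbols were placed with GENCODE (21777) and RefSeq (211 by symbol, 1295 by synonym), and 137 were not placed. Because the unit is TPM, log2(TPM + 1) was fitted with limma (3.58.1, R 4.3.3) with an intensity trend, on genes with a mean TPM above 1 in either condition. Calls needed a 2-fold change and a Benjamini-Hochberg adjusted p under 0.05. An exact permutation test of 2 against 2 libraries cannot go below p = 0.333. The remaining steps ran in Python 3.11.15 using scipy 1.17.1, numpy 2.4.6 and pandas 2.3.3. The limma script was also run on simulated counts, drawn independently for each library and without pairing of animals. That run does not measure error rates in these data.

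The methods state that cells of a mouse were divided between the conditions. Over 9926 autosomal genes, how far a library lay from the mean of its condition correlated at 0.231 with the same measure in its partner. The fit had no replicate block, and one was added as an alternative.

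The members, the gene lists and the rule for naming genes were chosen with earlier results of these data known. The rule names the members, in each list the called genes and the 3 most abundant tested genes, the 3 nearest genes on each side of the locus, of which 1 is not reported here, and the 3 genes most alike to Neat1, Malat1 and Nono. Other named genes are marked as such or stand at the end of a range. Sequences are from GENCODE M21.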

Additional observations from a re-analysis of the deposited data

How the results depend on the processing

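No member difference with a call reversed, and the sign of Neat1, Sfpq, Pspc1 and Rbm14 was the same in all 13 settings. The replicate block gave 424 genes higher and 23 lower in place of 235 and 5, 2 paraspeckle genes higher in place of 1 and 1 long non-coding RNA in place of 0, and it moved no other count by over 1.5 times. Lower genes numbered 1 without the filter and 1 with voom. Paraspeckle genes called higher numbered 2 without the filter, without the trend and with voom. Leaving out a library gave 0 to 184 genes higher, 0 to 1 lower and 0 to 1 paraspeckle genes. Without AZ20 replicate 1 or AZ20 replicate 2, 0 genes were called higher, and without Ctrl replicate 1 or 2 there were 184 and 158. The lone library left in a group was assumed to vary like the others. The Neat1 difference of 1.48 was 1.98 with a pseudocount of 0.1, 1.22 after quantile normalization and 2.01 with voom. That of Rbm14, -0.79, was -0.93, -1.03 and -0.98 in these. After quantile normalization that of Sfpq was 0.25 and that of Pspc1 0.01. Without each library in turn the differences ranged from 1.37 to 1.58 for Neat1, -0.44 to 0.11 for Malat1, 0.32 to 0.43 for Sfpq, 0.04 to 0.26 for Pspc1 and -0.84 to -0.73 for Rbm14. The causes of these shifts were not tested. Nono passed no filter and had a value only without one. With 2 animals and 38 to 242 reads on Neat1, depth and replication limit what can be said of its call.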
